A study of Rattus norvegicus with 24 samples.

Results

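Cd9 and 6 other tetraspanin genes, Cd81, Cd63, Cd82, Cd151, Tspan8 and Tspan13, were followed in single neurons of the rat dorsal root ganglion (DRG). They were taken by name, 7 of the 32881 genes that all count files share, and read in the 1433 of 1464 cells that passed quality control, with 500 or more genes detected, 1000 or more UMIs and less than 5% of UMIs from the Mt- genes. A UMI is a unique molecular identifier, so a count stands for 1 captured transcript molecule. The Ensembl identifiers are ENSRNOG00000019556 for Cd9, ENSRNOG00000020451 for Cd81, ENSRNOG00000007650 for Cd63, ENSRNOG00000000047 for Cd82, ENSRNOG00000046094 for Cd151, ENSRNOG00000004411 for Tspan8 and ENSRNOG00000005046 for Tspan13.

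The neurons came from L4 and L5 DRGs of male Sprague-Dawley rats of 200 g after spared nerve crush (SNC), an operation in which the tibial and common peroneal branches of the sciatic nerve were crushed and the sural branch was left intact. In sham rats the nerve was exposed and not injured. In the labelled libraries, dyes had been injected into the nerve branches before the operation, and fluorescent neurons were picked by hand. They made 930 cells in 16 DRG samples, with 4 samples for sham, 4 for 1 day, 3 for 3 days and 5 for 7 days of recovery from SNC. In 7 added libraries with 503 cells, labelled as sham at 0, 1, 3 or 7 days, the labels mention no dye. Cell names do not carry the dye, so neurons with crushed and with uncrushed axons were pooled in each SNC sample. The number of rats behind a sample is not given in the labels, so the spread between samples may be in part technical.

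The summed counts per sample ran from 4002564 to 27504659 UMIs in labelled sham, from 8703837 to 28976434 after SNC and from 14004381 to 40733436 in the added libraries. No pair of replicates agreed within sampling noise (46 pairs, lowest chi-square per degree of freedom 10.1). The pan-neuronal markers summed to 5650 to 7456 CPM (the UMIs of a gene relative to all UMIs of the sample, on the usual scale) in sham and to 4286 to 5066 CPM in the added libraries. The 10 markers of glia, which wrap these neurons and carry several tetraspanins themselves, summed to 1427 to 2455 CPM in sham, 1395 to 2324 at 1 day, 1289 to 1613 at 3 days, 1113 to 1728 at 7 days and 841 to 2042 in the added libraries. Macrophage markers summed to 12 to 46 CPM over all samples.

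Tetraspanins are small membrane proteins that span the membrane repeatedly and hold integrins, immunoglobulin-family proteins and proteases together in the plane of the membrane. CD9 and CD81 are close relatives and partner the same immunoglobulin-family proteins at the cell surface, CD63 sits mostly in late endosomes and lysosomes and is a standard marker of exosomes, and CD82 and CD151 are linked to integrin traffic and adhesion. Tspan8 is best known from epithelia, and Tspan13 from the regulation of calcium channels. In peripheral nerve, Cd9 and Cd81 are also expressed by Schwann cells.

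The promoters of Cd9 and of the 3 members whose levels differed between the added and the labelled sham libraries are shown here, as RefSeq places them in GRCr8, from 250 bases before the gene start to 50 after it. Of the 7 members, 6 had a promoter in the RefSeq table. Capitals mark matches on either strand to the GC box (GGGCGG), the CCAAT box (CCAAT), the AP-1 site (TGACTCA), the E-box (CACGTG) and the TATA box (TATAAA). The promoter of Cd9 lies at chr4:159975309-159975608 on the minus strand, that of Cd63 at chr7:1921894-1922193 on the plus strand, that of Tspan13 at chr6:58492755-58493054 on the minus strand and that of Cd81 at chr1:207665047-207665346 on the plus strand.
Cd9: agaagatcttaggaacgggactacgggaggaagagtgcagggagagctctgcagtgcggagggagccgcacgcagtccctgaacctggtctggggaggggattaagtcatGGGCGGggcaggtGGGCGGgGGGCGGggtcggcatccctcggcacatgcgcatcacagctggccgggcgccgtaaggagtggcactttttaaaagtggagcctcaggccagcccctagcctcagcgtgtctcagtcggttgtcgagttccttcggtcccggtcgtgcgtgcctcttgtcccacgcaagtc
Cd63: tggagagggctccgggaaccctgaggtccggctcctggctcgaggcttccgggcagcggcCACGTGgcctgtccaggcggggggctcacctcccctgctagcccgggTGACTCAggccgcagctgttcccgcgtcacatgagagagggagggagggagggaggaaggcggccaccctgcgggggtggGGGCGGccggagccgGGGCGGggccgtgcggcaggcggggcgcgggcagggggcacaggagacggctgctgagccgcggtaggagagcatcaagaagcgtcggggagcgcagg
Tspan13: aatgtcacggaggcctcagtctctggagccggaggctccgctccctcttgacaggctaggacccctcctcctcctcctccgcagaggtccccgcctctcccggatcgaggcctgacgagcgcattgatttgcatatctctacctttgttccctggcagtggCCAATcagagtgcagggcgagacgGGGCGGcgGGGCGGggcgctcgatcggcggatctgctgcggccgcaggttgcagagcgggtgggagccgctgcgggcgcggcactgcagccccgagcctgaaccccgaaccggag
Cd81: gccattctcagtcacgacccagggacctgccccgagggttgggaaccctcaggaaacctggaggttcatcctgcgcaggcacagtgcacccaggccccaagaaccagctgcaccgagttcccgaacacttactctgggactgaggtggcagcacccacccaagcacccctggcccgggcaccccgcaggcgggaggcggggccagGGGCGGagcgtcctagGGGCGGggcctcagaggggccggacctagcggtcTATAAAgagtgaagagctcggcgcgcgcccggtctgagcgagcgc

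The Cd9 window holds 3 GC boxes and no other motif searched for. The Cd63 window holds 2 GC boxes, 1 E-box and 1 AP-1 site, the Tspan13 window 2 GC boxes and 1 CCAAT box, and the Cd81 window 2 GC boxes and 1 TATA box. Cd151, not printed, has 2 GC boxes, and Tspan8 has none of these motifs. Of 33469 promoters of this length, 33.1% hold a GC box, 37.5% a CCAAT box, 14.2% a TATA box, 6.42% an E-box and 4.63% an AP-1 site. GC content was 64.0% for Cd9, 68.7% for Cd81, 68.3% for Tspan13 and 75% for Cd63, with a median of 51.7% over all promoters.

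Of the 7 members, 6 were expressed in DRG neurons and Cd151 was not detected beyond single counts. Cd9 gave 54665 UMIs in the labelled cells, with at least 1 UMI in 88.4% of them, and 51061 UMIs in the added cells (85.3%). Cd151, the laminin-binding integrin partner, gave 11 UMIs in 10 labelled cells and 0 in the added cells, where a count of 0 allows up to 3. Cd81 gave 205677 and 107286 UMIs in the labelled and added cells, Tspan8 171845 and 137054, Tspan13 136024 and 48420, Cd63 111805 and 15579, and Cd82 36451 and 25602. Such counts cover counting error only.

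Cd9 was high in a few neuron types and low in the others. Cells had been clustered without any tetraspanin, and clusters were named from marker lists, so the levels by type describe clusters of the same cells and were not tested. The lists for the peptidergic (PEP) types drew on genes that the study chose on these same samples. The study also lists Cd9 as a marker of PEP1 and PEP3, Tspan8 of PEP3 and Tspan13 of PEP2. High levels in those types repeat its result and are no independent support. In the labelled neurons Cd9 was at 765 ± 138 CPM (SD, n = 11 samples) in PEP3-like neurons, a peptidergic nociceptor type, and exceeded the rest of the cells in 11 of 11 samples, with a lowest sample of 539 CPM and a highest of 967 CPM. In PEP1-like neurons, the other peptidergic type with much Cd9, it was at 337 ± 138 CPM (n = 16) and exceeded the rest of the cells in 15 of 16 samples, between 156 and 637 CPM.

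The third peptidergic type had almost none. In PEP2-like neurons Cd9 was at 27.9 ± 36.2 CPM (n = 16), above the rest of the cells in 0 of 16 samples, with a median of 11.9 CPM. NF-like neurons, the large myelinated neurons that express neurofilament heavy chain, were at 130 ± 107 CPM (n = 15). The remaining types were within 1 SD of one another, at 37.7 ± 21.5 CPM in nonpeptidergic NP-like neurons (n = 8), 35.0 ± 29.9 in somatostatin SST-like neurons (n = 14) and 26.1 ± 12.3 in cold-sensing TRPM8-like neurons (n = 5), so neither these nor PEP2-like neurons can be ordered. The steps from PEP3-like to PEP1-like and from PEP1-like to NF-like neurons were each larger than the SDs.

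A cluster of 42 labelled cells in which 7 of 10 glial markers were high was left unnamed, and Cd9 was at 499 ± 166 CPM there (n = 7), above the rest of the cells in 7 of 7 samples. The part of glial RNA in this value was not tested. In these cells the glial markers summed to 3692 to 5301 CPM, and in PEP3-like neurons they summed to 873 to 1820 CPM.

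Counting cells gave the same order at the top. With each cell thinned to 20000 UMIs, 90.0% of PEP3-like cells had a Cd9 UMI, 77.2% of PEP1-like, 44.9% of NF-like, 41.7% of SST-like, 37.9% of TRPM8-like, 35.4% of NP-like and 29.9% of PEP2-like cells. Without thinning the shares were 97.3%, 95.3%, 93.2%, 86.8%, 82.8%, 85.3% and 71.6%. Thinning left 184 of 191 PEP1-like, 157 of 183 PEP2-like and 110 of 112 PEP3-like cells. The shares in NP-like, SST-like, TRPM8-like and PEP2-like cells lay too close together at these cell numbers for an order.

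**Figure D1:**
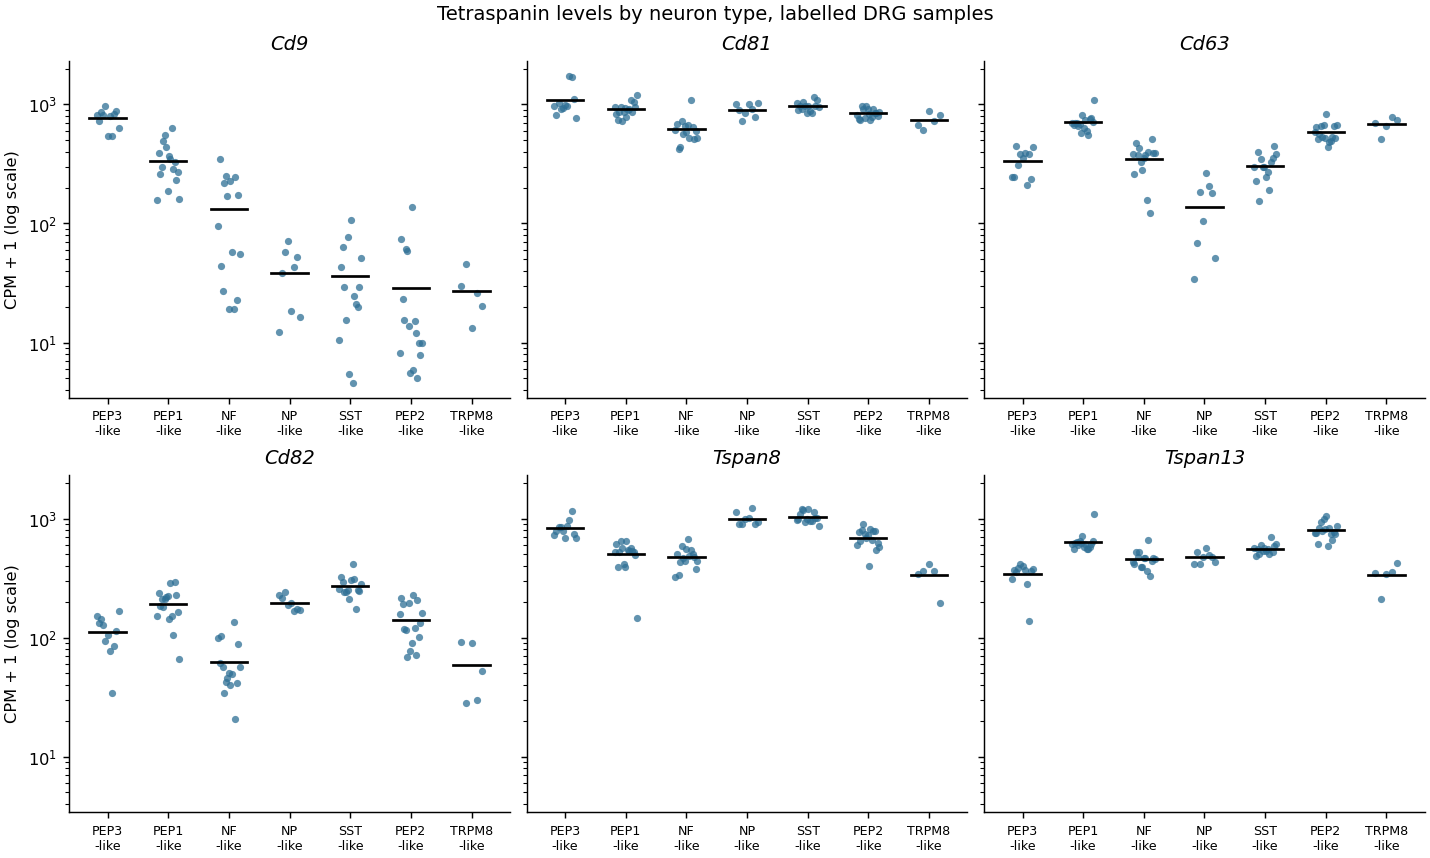
CPM + 1 on a log axis of the 6 detected tetraspanins by named neuron type in the labelled DRG samples, with a point for each sample that has at least 3 cells of the type and a bar for the mean. Cd9 runs from 765 CPM in PEP3-like to 26.1 CPM in TRPM8-like neurons, while Cd81 stays between 617 and 1082 CPM in the named labelled types.

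In the added libraries, clustered apart, Cd9 was again uneven. It was at 569 ± 282 CPM (n = 6) in an unnamed cluster of 107 cells led by Kcng1, Chp2, Ecel1, Insrr, Tdo2 and Kit, with a lowest sample of 37.8 CPM from 3 cells of added library 2 and a highest of 790 CPM. It was at 523 ± 142 CPM (n = 4) in a second unnamed cluster of 29 cells in which 8 of 10 glial markers were high. The named types were low, at 95.6 ± 44.5 CPM in NF-like, 51.7 CPM in NP-like, 27.6 CPM in SST-like and 29.6 CPM in low-threshold c_pLTMR2-like neurons.

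The other detected members had orders of their own. Cd81, the closest relative of Cd9 among the members, was at 1082 ± 321 CPM in PEP3-like, 966 ± 87 in SST-like, 912 ± 124 in PEP1-like and 617 ± 156 in NF-like neurons. Cd63 was highest in PEP1-like neurons, with 710 ± 125 CPM and 16 of 16 samples above the remaining cells, at 678 ± 104 CPM in TRPM8-like and at 583 ± 99 CPM in PEP2-like neurons (15 of 16 samples), and lowest in NP-like neurons (136 ± 84 CPM). PEP2-like neurons were thus among the highest for Cd63 and among the lowest for Cd9.

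Cd82 and Tspan8 were highest in SST-like and NP-like neurons. Cd82 was at 271 ± 57 CPM in SST-like neurons, above the rest of the cells in 14 of 14 samples, and at 196 ± 28 CPM in NP-like neurons (8 of 8 samples), against 60.8 ± 31.1 CPM in NF-like neurons (0 of 15 samples). PEP1-like neurons, at 190 ± 61 CPM of Cd82 (13 of 16 samples), did not differ from NP-like neurons beyond the SDs, and PEP2-like neurons were at 139 ± 54 CPM (8 of 16). Tspan8 was at 1034 ± 109 CPM in SST-like and 997 ± 120 CPM in NP-like neurons, above the rest of the cells in 14 of 14 and 8 of 8 samples, at 826 ± 137 CPM in PEP3-like (11 of 11) and 689 ± 125 CPM in PEP2-like neurons (12 of 16), and was lowest in TRPM8-like neurons (335 ± 83 CPM). In the added libraries Cd82 was again at 387 ± 113 CPM in SST-like and 247 ± 32 CPM in NP-like neurons, against 22.5 ± 9.7 CPM in NF-like neurons.

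Tspan13 was at 794 ± 126 CPM in PEP2-like and 638 ± 126 CPM in PEP1-like neurons, and both types exceeded the rest of the cells in 16 of 16 samples. It was low in PEP3-like neurons, the type with the most Cd9, at 342 ± 78 CPM and above the rest of the cells in 0 of 11 samples. In the added libraries its means by type lay only between 192 and 275 CPM.

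Cd9 differed from the other members in how strongly it varied between the labelled clusters. Further family genes are not compared by name here. Among them, Cd53, Tspan18 and Tspan33 had been taken out of the variable genes of the labelled cells beside Cd9. The SD over the 10 labelled clusters of the mean level, in log2(CPM + 1), was 2.16 for Cd9, 1.00 for Cd82, 0.98 for Cd63, 0.59 for Tspan8, 0.40 for Tspan13 and 0.36 for Cd81. Of 8447 genes with a mean of at least 10 CPM, 99.6% varied less than Cd9, 90.4% less than Cd82, 90.2% less than Cd63 and 59.1% less than Cd81. Over the 8 added clusters the SD was 1.98 for Cd9, 1.97 for Cd63 and 1.68 for Cd82, so there Cd9 did not stand apart from those relatives, and 97.1% and 97.0% of 8907 genes varied less than Cd9 and Cd63. These values are descriptions over clusters of the same cells, without a test.

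**Figure D2:**
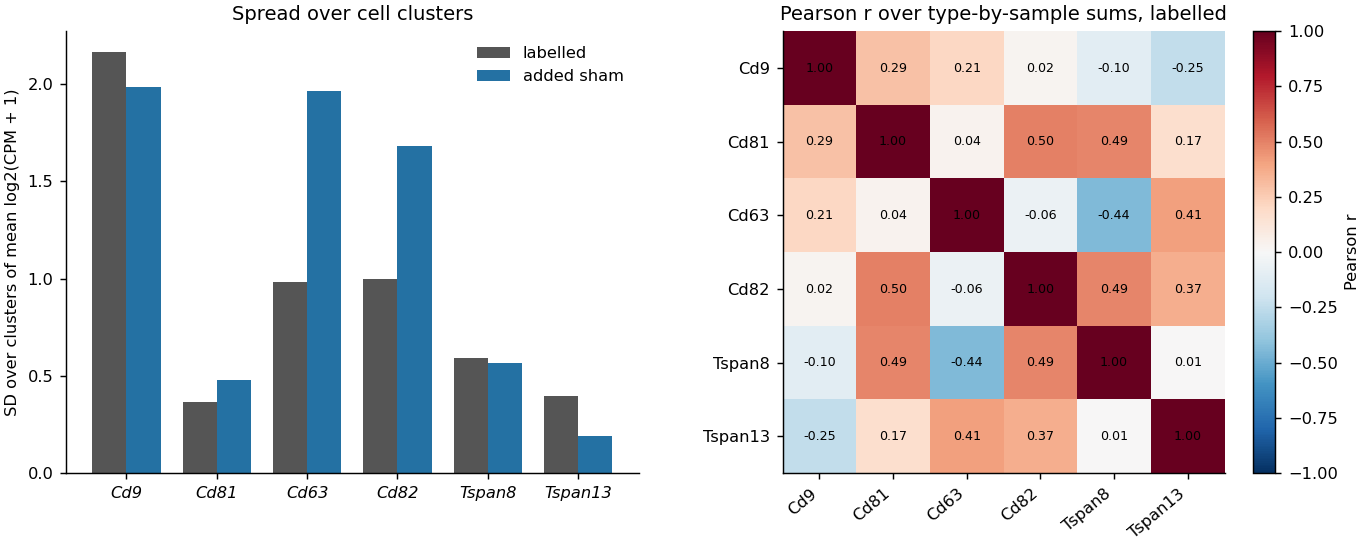
Left, bars of the spread of each tetraspanin over clusters, as the SD of the mean level in log2(CPM + 1), in the 10 labelled (grey) and the 8 added clusters (blue), and right, Pearson's r between the members over the 110 labelled sums, printed in each square. Cd9 has the largest SD among the members in the labelled clusters (2.16), and in the added clusters Cd9 (1.98) and Cd63 (1.97) lie side by side. Over the labelled sums the highest r of Cd9 with another member is 0.29, with Cd81.

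None of the other members followed Cd9 closely, and the values of further tetraspanin family genes are not given here. Over the 110 sums of cluster by labelled sample, which share libraries and depth within a sample, Pearson's r with Cd9 was 0.29 for Cd81, 0.21 for Cd63, 0.02 for Cd82, -0.10 for Tspan8 and -0.25 for Tspan13, which ranked Cd81 538, Cd63 1028, Cd82 3675, Tspan8 6229 and Tspan13 7814 among 8447 genes. Over the 44 added sums r was 0.12 for Cd81, 0.49 for Cd63, -0.48 for Cd82, -0.55 for Tspan8 and 0.52 for Tspan13. The sign for Tspan13 was thus opposite in the labelled and added libraries. Among the relatives themselves, over the labelled sums, r was 0.50 between Cd81 and Cd82, 0.49 between Cd81 and Tspan8 and between Cd82 and Tspan8, 0.41 between Cd63 and Tspan13 and -0.44 between Cd63 and Tspan8.

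The genes most like Cd9 over the labelled sums were Cldn16, a tight-junction protein (r = 0.81, and 0.74 in the added libraries), Ifitm2, an interferon-induced membrane protein (0.79 and 0.87), Bcl11a, a transcription factor (0.73 and 0.55), Kit, the receptor for stem cell factor (0.73 and 0.68), and Slc5a7, the choline transporter (0.73 and 0.51). Kit served among the PEP1 markers, and Cldn16, Ifitm2, Bcl11a and Slc5a7 did not serve to name a type. The r are descriptions over sums that share samples.

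Beside the neuron types, the next comparison asked whether the tetraspanins changed after SNC. None of the 6 members tested was called in any of the 15 comparisons with sham, over all labelled neurons or within a type, at an adjusted p under 0.05 of the edgeR quasi-likelihood test with Benjamini-Hochberg adjustment. Cd151 was too low to be tested. Few genes were called at all: 0% of 14239 genes over all labelled neurons at each time, 0.00944% of 10590 genes in PEP1-like neurons at 1 and at 3 days, which is 1 gene each (higher at 1 day and lower at 3 days), and 0% in the other type comparisons. With DESeq2, 0 members were called in these comparisons too. The list of 8 nerve injury genes was read in the same edgeR fits, and of the 7 tested 0 were called in any comparison. Over all labelled neurons their median log2 fold change was -0.21, -0.23 and -0.18 at 1, 3 and 7 days. In PEP1-like neurons at 1 day 4 of the 7 were at an unadjusted p under 0.05, with log2 fold changes from -0.86 to 0.23 over the 7. In PEP3-like neurons at 1 day 2 of the 7 were, with -0.41 to 2.95. All 7 were called lower in the added sham libraries than in labelled sham, as given below. The part of this in the comparisons with labelled sham was not tested. Below, members whose samples all lie above or below sham are named. The share of all genes that separate so was not counted, so a separation alone is not read as a result.

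Over all labelled neurons Cd9 was at 135, 161, 175 and 309 CPM in the 4 sham samples, at 324, 327, 308 and 231 CPM at 1 day, at 250.3, 155 and 58.7 CPM at 3 days and at 124, 78.9, 205, 114 and 123 CPM at 7 days. Of the 4 sham samples, 3 lay below all 4 samples of 1 day, and sample 18, the only sham sample reverse transcribed in the later of the study's 2 years, like all samples of 1 and 3 days, lay among them. The means were 195 ± 77.7 CPM in sham (SD, n = 4), 298 ± 44.8 at 1 day (n = 4), 155 ± 95.8 at 3 days (n = 3) and 129 ± 46.3 at 7 days (n = 5).

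Each SNC group overlapped with sham. The log2 fold change of Cd9 against sham was 0.55 ± 0.35 (SE) at 1 day (adjusted p = 0.656), -0.37 ± 0.37 at 3 days (adjusted p = 0.969) and -0.64 ± 0.33 at 7 days (adjusted p = 1.00). An exact two-sided permutation test of log2(CPM + 1) gave p = 0.086, 0.457 and 0.143, or 0.257, 0.549 and 0.286 adjusted over 6 tests.

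The list of glial markers was read in the same sums. Of 9 tested, 0 were called at any time, and 0, 3 and 4 were at an unadjusted p under 0.05 at 1, 3 and 7 days, with a median log2 fold change of -0.12, -1.34 and -1.50. The 10 markers together summed to 1427 to 2455 CPM in sham, 1289 to 1613 CPM at 3 days and 1113 to 1728 CPM at 7 days. Without the cluster with glial markers the log2 fold changes of Cd9 were 0.76, -0.15 and -0.45, and with the summed markers as a term 0.58, -0.58 and -0.84, in neither case called.

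In such sums, more cells of a type with high Cd9 and more Cd9 per cell cannot be told apart. PEP3-like cells made up 15.8% of the sham cells, 12.6% at 1 day, 12.7% at 3 days and 7.5% at 7 days, and PEP1-like cells 12.6%, 23.9%, 21.9% and 22.9%. With NF-like, PEP1-like, PEP2-like and SST-like neurons, the types present in every sample, at equal weight, the log2 difference of Cd9 at 7 days was 0.20 in place of -0.64, a mean that leaves out PEP3-like neurons, the type with the most Cd9.

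The log2 fold changes of the other members lay between -0.27 and 0.28. At an unadjusted p under 0.05, where 8.73%, 4.17% and 3.34% of all genes lay at 1, 3 and 7 days, stood 0, 0 and 1 of the 6 members. That 1 was Cd81 at 7 days, at 752, 684.5, 864, 663 and 873.5 CPM against 1002, 895, 831 and 811 CPM in sham, a log2 fold change of -0.27 ± 0.12 by edgeR (0.0397 before and an adjusted p of 1.00 after adjustment), with groups that overlapped. At 3 days Cd81 was at 719, 794 and 769 CPM, below every sham sample, with a log2 fold change of -0.25 ± 0.14 (adjusted p = 0.966, edgeR). Cd63 was at 753, 249, 413 and 390.4 CPM in sham and between 288 and 535 CPM in the 12 SNC samples, inside the sham range. Cd82 ran from 75.9 to 155 CPM in sham and from 103 to 225 CPM after SNC, Tspan8 from 520.2 to 805 and from 555 to 770 CPM, and Tspan13 from 473 to 765 and from 438 to 573.5 CPM, so each overlapped with sham. The 95% intervals of the log2 fold changes were -0.75 to 0.44 for Cd63, -0.38 to 0.21 for Tspan8 and -0.50 to 0.21 for Tspan13 at 1 day.

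**Figure D3:**
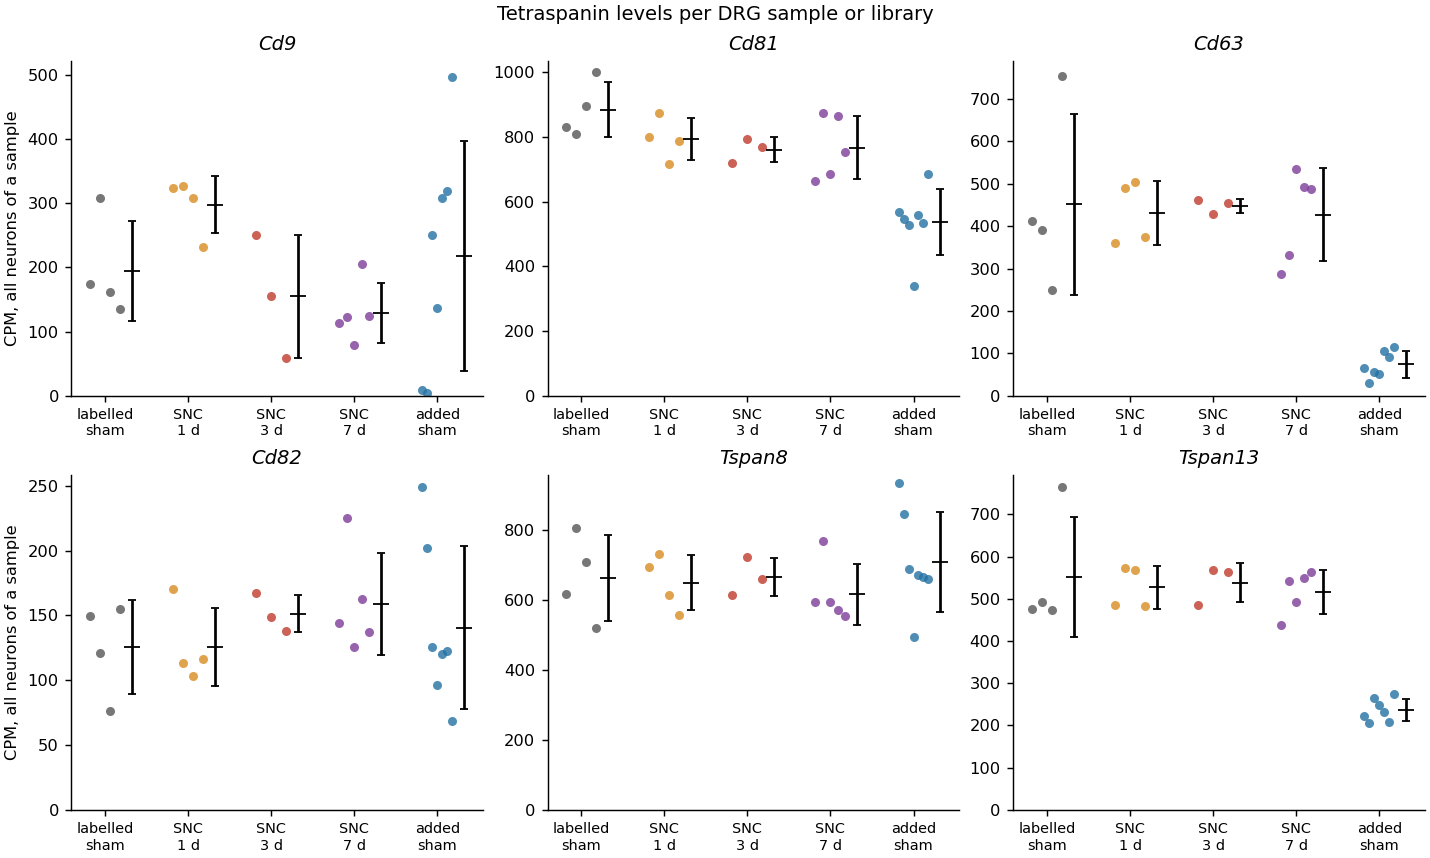
CPM of each tetraspanin summed over all neurons of a sample, with a point per sample and a bar for the mean ± SD, in labelled sham, SNC at 1, 3 and 7 days and the added sham libraries. For Cd9 each SNC group overlaps with labelled sham (135 to 309 CPM). The 1-day samples (231 to 327 CPM) lie above the 7-day samples (78.9 to 205 CPM), a difference that was not tested. The added libraries lie below labelled sham for Cd63, Tspan13 and Cd81.

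Cd9 was also set against the mean of the other members in the same sample. The difference in log2(CPM + 1) was 0.23 ± 0.59 in sham (SD, n = 4), 0.91 ± 0.17 at 1 day (n = 4), -0.30 ± 1.06 at 3 days (n = 3) and -0.36 ± 0.46 at 7 days (n = 5). That mean includes Cd151, which was not detected beyond single counts, and without Cd151, a choice made after seeing the data, the differences were -1.23 ± 0.62, -0.53 ± 0.15, -1.76 ± 1.06 and -1.81 ± 0.45. Their sign therefore depends on the members in the mean and is not read, nor is their size, since CPM are not per transcript length. Without Cd151 the difference at 1 day lay between -0.76 and -0.44, while the highest sham sample was at -0.49, so the groups overlapped, and in the 7 added libraries between -5.56 and 0.98, with a median of 0.10.

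In PEP1-like neurons Cd9 was higher in every 1-day sample than in every sham sample. The study picked Cd9 from a set of genes that rose at this time in crushed neurons of this type, in these same samples. The separation therefore reads again the data that selected the gene and is no independent support. By single-cell qPCR the study found no significant difference of Cd9 in this type at that time. Cd9 was at 160.4, 284.5, 156 and 368 CPM in the 4 sham samples and at 389, 490.3, 551 and 434 CPM at 1 day. It was at 261, 300.1 and 186 CPM at 3 days, inside the sham range, and at 267, 326, 231, 347 and 637 CPM at 7 days, overlapping with sham.

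The log2 fold change of Cd9 in PEP1-like neurons was 0.82 ± 0.26 (SE) at 1 day (95% interval 0.28 to 1.35, adjusted p = 0.306), -0.05 ± 0.28 at 3 days and 0.47 ± 0.25 at 7 days. The exact permutation test of 1 day against sham gave p = 0.029, the smallest that 4 samples against 4 allow, and 0.171 adjusted over 6 tests. Since Cd9 had been picked on these same samples, this test is not an independent one. The labels do not say whether samples 17-1 and 17-2 of 1 day, or 19-1 and 19-2 of 7 days, came from separate animals, and with each pair merged the 1-day log2 fold change was 0.81 (adjusted p = 0.459, edgeR). Sample 18, the sham sample that shares its reverse transcription year with the samples of 1 and 3 days, was the highest of sham. With the year as a term the 1-day log2 fold change was 0.30 (adjusted p = 0.941), and with the reverse transcription date as a block, in the samples whose date holds more than 1 group, it was 0.37. No date holds both sham and 1-day samples, so the blocked value reaches sham only through the 7-day samples.

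Of 8 glial markers tested in PEP1-like neurons at 1 day 0 were called and 1 was at an unadjusted p under 0.05, with a median log2 fold change of 0.64 beside 0.01 over all genes. The markers summed to 1250 to 1515 CPM in sham and 1173 to 1856 CPM at 1 day, so the sums overlapped. With the summed markers as a term the 1-day log2 fold change of Cd9 was 0.79.

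Cd82, known as a suppressor of tumour cell migration, stood above sham in all 12 SNC samples in PEP1-like neurons. It was at 65.4, 104, 149 and 143.5 CPM in sham, at 234, 179.5, 211 and 218 CPM at 1 day, at 184, 212 and 223 CPM at 3 days and at 293, 285, 229, 162.5 and 151 CPM at 7 days, with the lowest SNC sample at 150.7 CPM just above the highest sham sample at 149.4 CPM. The log2 fold changes were 0.71 ± 0.23 (unadjusted p = 0.0047, adjusted p = 0.306), 0.73 ± 0.24 (0.0058 and 0.779) and 0.86 ± 0.22 (0.0007 and 0.918) by edgeR, so Cd82 was not called.

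With a term for the reverse transcription year the changes of Cd82 were 0.68, 0.70 and 0.85, and with cells thinned to 20000 UMIs 0.47, 0.44 and 0.54. In PEP1-like neurons 11.4%, 6.28% and 4.79% of all genes lay at an unadjusted p under 0.05 at 1, 3 and 7 days, and 3, 1 and 1 of the 6 members did. The 3 at 1 day were Cd9, Cd82 and Cd81, and Cd81 was lower there, by a log2 fold change of -0.37 ± 0.16 (unadjusted p = 0.0276, edgeR).

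In PEP2-like neurons the values of Cd9 turned on 1 sham sample. Cd9 was at 9.01, 11.1, 7.13 and 135 CPM in sham, the last being sample 18, at 73.7, 59.6, 57.8 and 12.8 CPM at 1 day, at 22.3, 14.4 and 4.57 CPM at 3 days and at 6.87, 3.99, 8.98, 4.86 and 14.3 CPM at 7 days. The log2 fold changes were 0.34, -1.54 and -2.43 (7 days: SE 0.72, unadjusted p = 0.0027, adjusted p = 0.995, edgeR). Without sample 18 the 7-day value was -0.28 and the 1-day value 2.48, within the samples of the earlier reverse transcription year the 7-day value was -0.50, and with the summed glial markers as a term it was -0.57.

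Sample 18 also had the highest glial marker sum among the PEP2-like neurons, 1861 CPM, and the part of glial RNA in its Cd9 value was not tested. At an unadjusted p under 0.05, against 6.64%, 7.08% and 4.29% of all genes, stood 0, 0 and 2 members at 1, 3 and 7 days, Cd9 and Cd63. The log2 fold change of Cd63 at 7 days was -0.35 ± 0.16 (edgeR adjusted p = 0.995).

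In PEP3-like neurons, where Cd9 was highest, its level overlapped with sham at 1 and 7 days, and both 3-day samples lay just above the highest sham sample. It was at 820.1, 804 and 539 CPM in sham, at 720, 967 and 546 CPM at 1 day, at 857 and 822 CPM at 3 days and at 827, 873 and 639 CPM at 7 days. The log2 fold changes were -0.05 ± 0.24, 0.17 ± 0.27 and 0.12 ± 0.24, with 95% intervals from -0.55 to 0.46, -0.38 to 0.73 and -0.39 to 0.63. None of the 6 members was at an unadjusted p under 0.05 in PEP3-like neurons, where 2.99%, 1.55% and 5.02% of all genes were. Tspan13 was higher at 1 day in every sample, at 372 to 418 CPM against 283 to 369 CPM in sham, with a log2 fold change of 0.19 ± 0.20.

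In NF-like neurons Cd9 was lower at 3 days in every sample than in every sham sample. It was at 94.7, 225.5 and 246 CPM in sham, at 344, 217, 248 and 169 CPM at 1 day, at 43.4, 25.9 and 18.3 CPM at 3 days and at 54.8, 21.6, 172, 57.1 and 18.3 CPM at 7 days. The 1-day samples overlapped with sham, and at 7 days 4 of 5 samples lay below all sham samples. At 3 days Cd81 was also lower in every sample, at 421 to 587 CPM against 613 to 670 CPM (log2 fold change -0.39 ± 0.26), and Tspan13 was higher in every sample, at 466.2 to 522 CPM against 327 to 461 CPM (0.27 ± 0.21), and neither was called. How many of all genes separate so with these few samples was not counted.

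The log2 fold changes in NF-like neurons were 0.35 ± 0.55 at 1 day, -2.69 ± 0.63 at 3 days (unadjusted p = 0.0006, adjusted p = 1.00, edgeR) and -1.56 ± 0.52 at 7 days (unadjusted p = 0.0085, adjusted p = 1.00), so Cd9 was not called. It was the only member at an unadjusted p under 0.05 in these neurons, at 3 and 7 days, where 4.43%, 3.38% and 2.27% of all genes were at 1, 3 and 7 days. With the year as a term the 3-day value was -2.49, with cells thinned to 20000 UMIs -1.68 and with the summed glial markers as a term -2.83.

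NF-like neurons were made of 2 clusters that differed in Cd9. In the cluster led by S100a16, Nppa and Kcnv1, Cd9 was at 365 ± 199 CPM in sham (n = 3), 333 ± 157 at 1 day (n = 4), 55.8 ± 50.9 at 3 days (n = 3) and 153 ± 117 at 7 days (n = 5). In the cluster led by Shox2, Smpx and Ntng1 it was at 22.6, 29.6, 21.3 and 14.1 CPM. Pooled over samples, the first cluster held 18 of 41 NF-like cells in sham, 33 of 47 at 1 day, 15 of 37 at 3 days and 19 of 51 at 7 days. Its share of all cells of a sample ran from 4.2% to 11.5% in sham and from 8.5% to 25.0% at 1 day. At 3 days it ran from 3.2% to 16.7% and at 7 days from 4.2% to 16.7%, so the groups overlapped.

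Fitted alone, the S100a16 cluster gave Cd9 log2 fold changes of -0.13, -2.61 ± 0.75 (unadjusted p = 0.0027, adjusted p = 0.490, edgeR) and -1.22, and the Shox2 cluster 0.30, -0.20 and -0.80. These fits of each cluster alone were chosen after seeing the data.

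**Figure D4:**
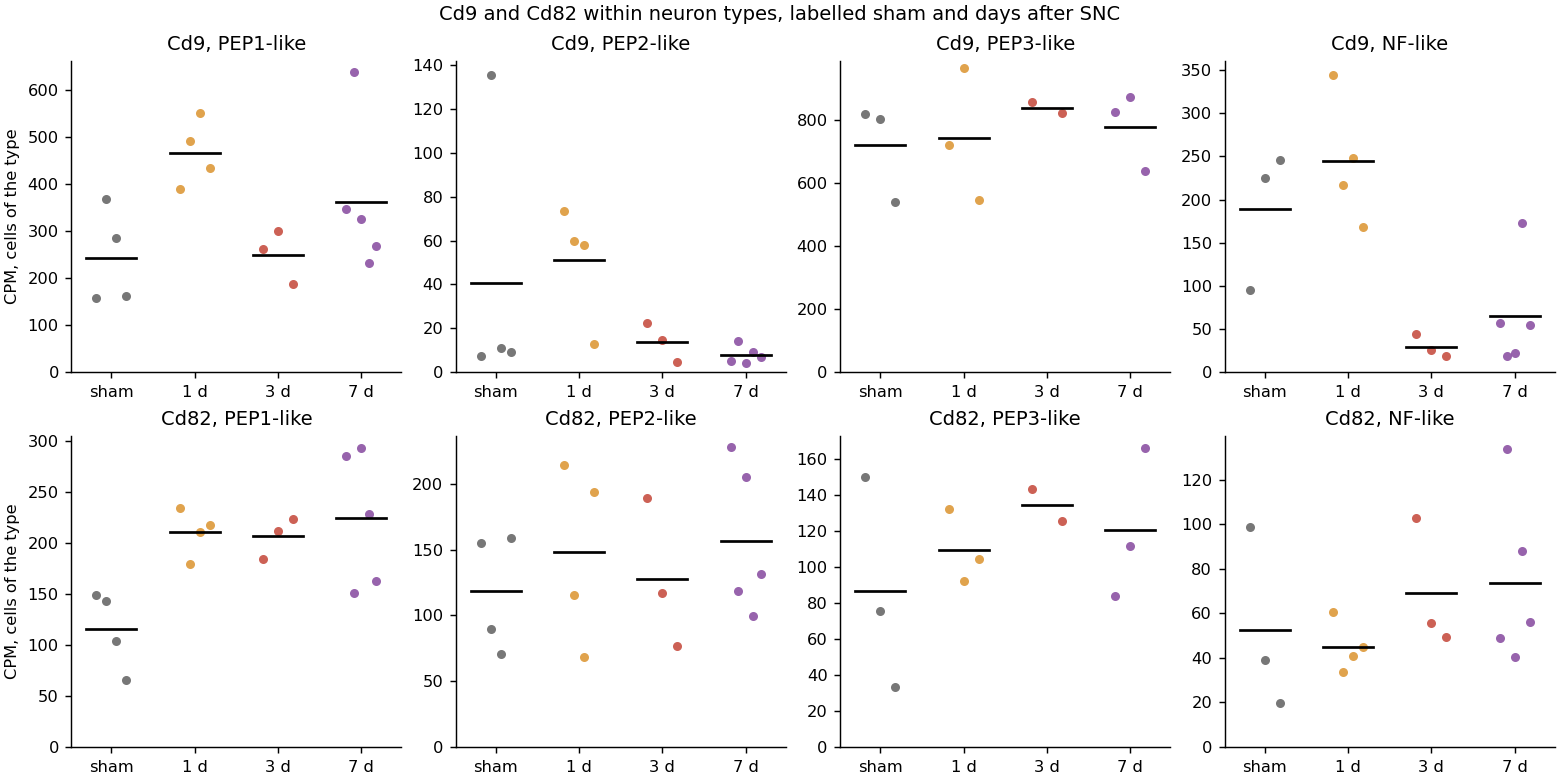
CPM of Cd9 and Cd82 within neuron types of the labelled samples, with a point per sample and a bar for the mean, in sham and at 1, 3 and 7 days after SNC. Cd9 in PEP1-like neurons is above sham in all 4 samples of 1 day (389 to 551 CPM), in NF-like neurons it is below sham in all 3 samples of 3 days, and Cd82 in PEP1-like neurons is above sham in all 12 SNC samples.

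Whether the change of a member differed between PEP1-like, PEP2-like and NF-like neurons was tested in 54 permutation tests, for the 6 members, each pair of types and each time. Of these 0 passed an adjusted p of 0.05, and 2 had an unadjusted p under 0.05. The lowest p was that of Cd9 in PEP1-like against PEP2-like neurons at 7 days, a difference in log2 change of 1.82 (exact permutation p = 0.032, adjusted p = 0.827).

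The other tetraspanins and their partners were not called after SNC either. Of 26 further family genes 23 were in the files and 17 were tested over all labelled neurons, and all 17 genes on the list of known partners were tested. In all 15 comparisons 0 family genes and 0 partners were called. The most abundant family genes over the labelled neurons were Tspan17 (618 CPM), Tspan3 (484 CPM), Tspan7 (364 CPM), Tspan31 (253 CPM) and Tspan12 (191 CPM), and the most abundant partners were Sdcbp, the syntenin of the exosome pathway (514 CPM), Cd47 (441 CPM), Itgb1, the integrin beta 1 chain (354 CPM), Cd44 (252 CPM) and Pdcd6ip (214 CPM). These levels are not set against each other, since they are not per transcript length. The median log2 fold change of the family was -0.02, -0.07 and -0.10 at 1, 3 and 7 days over all labelled neurons, beside -0.01, 0.00 and -0.01 for all genes.

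The added sham libraries were compared with the labelled sham samples to see whether the tetraspanins of sham neurons are alike in both sets. They differed in Cd63, Tspan13 and Cd81. Of 15791 genes tested 40.6% were called, 24.2% higher and 16.5% lower, and of the 6 members 3 were called, all of them lower. With this share of all genes called, the count is not read as particular to tetraspanins. The mix of neuron types differs between the sets. For the added libraries the labels mention no dye, and the study's sample table gives no date. The labels of labelled sham give no day after the operation. Dye, date, day and mix of types therefore cannot be told apart from the group.

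Cd63, the endosomal tetraspanin, was at 753, 249, 413 and 390.4 CPM in labelled sham and at 30.8 CPM in the lowest, 65.5 CPM in the median and 114 CPM in the highest of the 7 added libraries. The sets did not overlap. The log2 fold change was -2.77 ± 0.34 (SE, adjusted p = 9.8e-05, edgeR quasi-likelihood test), and the median over all genes was 0.15.

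Tspan13 was at 765, 473, 477 and 493.4 CPM in labelled sham and at 206, 232 and 274 CPM in the lowest, median and highest added library, again without overlap. Its log2 fold change was -1.36 ± 0.16 (adjusted p = 8.1e-05). Cd81 was at 811 to 1002 CPM in labelled sham and at 339, 546.5 and 686 CPM in the lowest, median and highest added library, and its log2 fold change was -0.85 ± 0.15 (adjusted p = 7.8e-04).

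The 3 differences were present within single neuron types. Within NF-like neurons the log2 fold changes of Cd63, Tspan13 and Cd81 were -2.58, -0.78 and -1.10, within NP-like neurons -1.91, -1.09 and -0.99, and within SST-like neurons -3.39, -1.67 and -0.75, with all 3 called in each, beside 4202 of 12698, 4434 of 11836 and 2910 of 9153 genes called in these types. With the added libraries of 0 days alone they were -2.82, -1.35 and -0.66, with those of 1, 3 and 7 days -2.78, -1.40 and -1.04, and without the glial cluster of either set -3.30, -1.39 and -0.81. The splits by type and by day were chosen after seeing the data.

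Cd9, Cd82 and Tspan8 were not called. Cd9 spread more widely over the added libraries than over any labelled group, at 8.93, 3.86 and 497 CPM in the 3 libraries of 0 days, 250 and 319 CPM at 1 day, 136 CPM at 3 days and 307.5 CPM at 7 days. Its log2 fold change was -0.01 ± 0.86, with a 95% interval from -1.86 to 1.85, and without added libraries 1 and 2 it was 0.41. Added libraries 1 and 2, the 2 lowest, held 0 and 3 cells of the Kcng1 cluster in which Cd9 was high, and Cd9 was also low in their other cells, at 2.82 and 1.88 CPM in NP-like neurons, where the other 5 libraries ran from 44.8 to 117 CPM.

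Cd82 was at 155, 75.9, 149.9 and 121 CPM in labelled sham and between 68.7 and 249 CPM in the added libraries, with a log2 fold change of 0.05 (95% interval -0.66 to 0.77). Tspan8 was at 520.2, 708.5, 616 and 805 CPM and between 494 and 936 CPM, with a log2 fold change of -0.02 (95% interval -0.40 to 0.36).

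Other tetraspanins moved both ways between the sets. Of 17 tested family genes 7 were called, of which Tspan9 (log2 fold change 1.62), Tspan5 (1.07), Tspan2 (0.62) and Rom1 (0.47) were higher in the added libraries and Tspan3 (-0.72), Tspan31 (-0.70) and Tspan17 (-0.49) were lower, with a median over the 17 of 0.23. Of 17 partners 10 were called, 7 higher and 3 lower. Among the higher ones were Igsf3, an immunoglobulin-family partner (1.86), Hbegf, a growth factor that CD9 binds (1.86), and Adam17, a sheddase (1.21), and the lower ones were Sdc1 (-2.01), Cd47 (-0.68) and Itgb1 (-0.45). These counts stand beside 40.6% of all genes called.

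**Figure D5:**
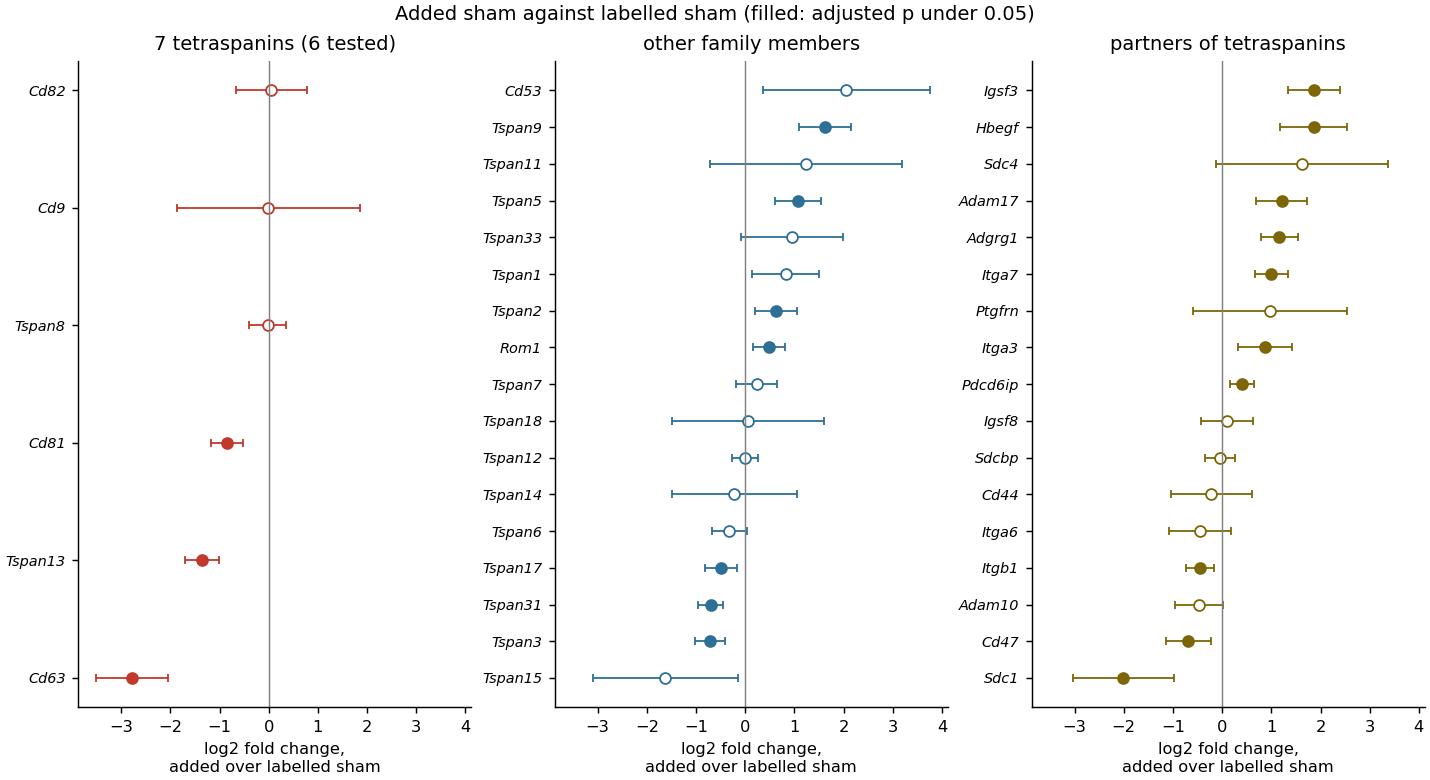
Log2 fold change over all neurons of the added sham libraries against labelled sham, with 95% intervals, for the 6 tested members, the other tetraspanins and their partners, where filled points have an adjusted p under 0.05 by edgeR. Cd63, Tspan13 and Cd81 are filled and below 0, and the interval of Cd9 runs from -1.86 to 1.85.

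Genes of nerve injury differed between the sets in the same comparison. Of the 8 on the list 7 were tested and 7 were lower in the added libraries, among them Gal, the neuropeptide galanin (log2 fold change -7.49), Atf3, a transcription factor of injured neurons (-2.06), and Gap43, a growth cone protein (-1.47). The part of the injury genes in the tetraspanin differences was not tested. Of 9 glial markers tested 1 was called (Pmp22, -0.63), beside 16.5% of all genes called lower, and the 10 markers summed to 1427 to 2455 CPM in labelled sham and 841 to 2042 CPM in the added libraries.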

How the data were processed

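Per the submitters' processing notes, the authors aligned reads with STAR to Rnor 6.0, assigned them with featureCounts (Subread), used SAMtools and collapsed molecules with UMI-tools. The deposited values are raw UMI counts per gene and cell, without normalization, in 24 libraries.

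Labelled and added cells were clustered apart with Seurat 5.3.0 (2000 variable genes without tetraspanins, 40 principal components, resolution 0.5) and clusters named from marker lists. No doublet caller was run, since neurons had been taken singly with a mouth pipette. UMIs were added up within each DRG sample, for all cells and for types with 3 cells or more, with 2 libraries of 1 sample joined. CPM are of these sums.

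Sums were compared by the edgeR 4.0.16 quasi-likelihood test (R 4.3.3; TMM, filterByExpr, 4 labelled groups in 1 fit), adjusted over all genes tested, and by exact permutation tests of log2(CPM + 1) with SciPy 1.17.1. On simulated data with these depths, 37.0% of genes changed by 1 on the log2 scale and 80.0% of those changed by 2 were called over all labelled neurons at 1 day. Alternatives were DESeq2 1.42.0 and other scalings, filters, depths, clusterings and batch terms, the year of reverse transcription being taken from the study's sample table.

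Members, lists and tests were chosen with earlier results of these data known. Named genes are the 7 members, other tetraspanins and partners that were called or were the 5 most abundant of their list, the 5 genes with the highest r to Cd9, and injury genes.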

Additional observations from a re-analysis of the deposited data

Results flagged for a closer look

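Dixon's criterion was applied at its 95% critical value, at which chance marks about 1 in 20 groups. Of 72 groups with at least 4 samples or libraries, 7 held a sample far from the others. Cd9 stood apart in 3 of them: at 135 CPM in PEP2-like neurons of sham sample 18 (nearest sample 11.1 CPM), at 637 CPM in PEP1-like neurons of the 7-day sample 19-2 (nearest 347 CPM) and at 172 CPM in NF-like neurons of the 7-day sample 9 (nearest 57.1 CPM). The 7-day sample 19-2 also stood apart for Cd81 in NF-like neurons, at 1086 CPM from 3 cells (nearest 597 CPM), and for Tspan8 over all neurons, at 770 CPM (nearest 595 CPM). Tspan13 stood apart in sham sample Xin, at 765 CPM over all neurons (nearest 493.4 CPM) and at 1084 CPM in PEP1-like neurons (nearest 614 CPM).

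Changes that differed between neuron types by an exact permutation test at an unadjusted p under 0.05 numbered 2 of 54. Cd9 at 7 days changed by 1.82 more on the log2 scale in PEP1-like than in PEP2-like neurons (exact p = 0.032), a difference in which sham sample 18 takes part. Tspan13 at 7 days had a difference of -0.456 between PEP2-like and NF-like neurons (exact p = 0.036). Both had an adjusted p of 0.827 and so failed the correction.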

How the results depend on the processing

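The count of members called after SNC stayed at 0 in all 15 comparisons with each sample left out in turn and under every alternative run but 1. Without the filter on low counts 2 members were called in PEP1-like neurons at 1 day (Cd9, log2 fold change 0.85, and Cd82), 1 at 3 days and 1 at 7 days (Cd82), and 1 in PEP2-like neurons at 3 and 1 at 7 days (Cd9, -1.50 and -2.41). There 240, 72 and 58 of 19858 genes were called in PEP1-like neurons at 1, 3 and 7 days, and 128 and 56 of 19360 in PEP2-like neurons at 3 and 7 days. The cause was not tested. The 3 members called in the added libraries were the same under every alternative run, with log2 fold changes from -3.03 to -2.42 for Cd63, -1.49 to -1.17 for Tspan13 and -0.95 to -0.77 for Cd81 when 1 library was left out.

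The uncalled change of Cd9 turned its direction in these cases, whose cause was not tested. Over all labelled neurons at 7 days it was 0.20 with NF-, PEP1-, PEP2- and SST-like neurons at equal weight, which leaves out PEP3-like neurons. In PEP1-like neurons at 3 days it was 0.29 with thinned cells, in PEP2-like neurons at 1 day -0.57 with the year as a term, in PEP3-like neurons at 1 day 0.16 with thinned cells and 0.13 with at least 5 cells, at 7 days -0.067 with all mitochondrial genes in the filter and -0.027 with at least 5 cells, and in NF-like neurons at 1 day -0.13 in the S100a16 cluster alone. In the added libraries it was 0.007 without the filter, 0.17 without the glial cluster, 0.039 with all mitochondrial genes in the filter, 0.83 within NP-like neurons, 0.18 with the libraries of 1, 3 and 7 days and 0.41 without added libraries 1 and 2. With 1 sample left out it ran from -0.23 to 0.21 in PEP1-like neurons at 3 days, -0.016 to 2.48 and -1.90 to 0.59 in PEP2-like neurons at 1 and 3 days, -0.29 to 0.14 and -0.022 to 0.29 in PEP3-like neurons at 1 and 7 days, and -0.33 to 0.29 in the added libraries. Without Cd151 in the mean of the other members, Cd9 minus that mean was -1.23 in sham and -0.53, -1.76 and -1.81 at 1, 3 and 7 days, in place of 0.23, 0.91, -0.30 and -0.36. Of the levels of Cd9 by neuron type 0 of 76 moved by more than 1 SD under other settings, and of those of the other members 18 of 380.

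No paired analysis was possible because the replicate numbers only follow the order of the samples. Samples that share a reverse transcription date could be blocked by it, and then 0 members were called in the 12 comparisons this was run for, with log2 fold changes of Cd9 at 1, 3 and 7 days of 0.37, -0.93 and 0.39 in PEP1-like, 1.31, -1.58 and -0.54 in PEP2-like and 0.95, -2.36 and -1.31 in NF-like neurons. No date holds sham together with 1-day or 3-day samples, so the blocked values at 1 and 3 days reach sham only through the 7-day samples. Resolution 0.3 gave no PEP2-like cluster and so no value there. The fits within single types and by day for the added libraries, without added libraries 1 and 2, of each NF-like cluster alone and without Cd151 in the mean were chosen after seeing the data. Types with 3 to 10 cells per sample limit the precision of their sums.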

Other observations

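The labels give opposite mixes of neurons for 2 samples of 7 days, 19-1 with 20 directly and 4 indirectly injured cells and 19-2 with 4 directly and 20 indirectly injured cells. Over all neurons Cd9 was at 114 CPM in 19-1 and 123 CPM in 19-2, Cd63 at 288 and 331 CPM, Cd81 at 663 and 873.5 CPM, Cd82 at 144 and 225 CPM, Tspan13 at 438 and 541 CPM and Tspan8 at 594 and 770 CPM. In PEP1-like neurons, 5 cells in each, Cd9 was at 347 and 637 CPM. With 1 sample each there is no test.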
